A study of Mus musculus with 1 sample.

Results

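S phase-scored alveolar macrophages (AMs) were the 60 cells, of 2055 (2.92%), with the highest expression of 10 genes of DNA replication in a single-cell library of sorted lung AMs. First, the 60 cells with the highest mean value of 10 G2 and mitosis genes (Mki67, Top2a, Birc5, Cdk1, Ccnb2, Nusap1, Ube2c, Cenpf, Tpx2 and Hmmr) were set aside and are called G2/M-scored cells. Among the rest, the 60 cells with the highest mean of Rrm2, Tyms, Mcm2, Mcm5, Mcm6, Gins2, Dtl, Uhrf1, Rrm1 and Hells, on the scale of the natural log of 1 plus UMIs per 10000 UMIs, were taken as members. Members were thus chosen by measured values of those genes. All other cells were the comparison, and the 1935 of them outside both scored groups are called remaining cells. The phase was read from transcripts alone, and DNA content was not measured in these cells.

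The library came from 1 mouse labelled wild-type, aged 8 to 12 weeks, of an FVB/NJ line backcrossed to C57BL/6 for 10 generations. In the study's methods the WT controls carry floxed Hdac3 alleles (Hdac3 fl/fl) without Cre, so these AMs have intact HDAC3, and the Hdac3-deficient library was not analysed here. Lung cells that were CD45+CD11c+SiglecF+ were sorted, and 5000 were loaded on a droplet system that counts the 3' ends of poly(A) RNA as UMIs (unique molecular identifiers, one per captured molecule). With 1 library there is no replicate and no test between mice, and all intervals below are 95% intervals that cover counting error only.

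AMs live in the airspaces, where they clear surfactant and inhaled particles, and they maintain their numbers largely by dividing in place. The MCM helicase is loaded on origins before S phase. In S phase DNA is copied by polymerases held by the sliding clamp PCNA, while enzymes of nucleotide synthesis supply dNTPs and chaperones supply histones. Many of these genes are targets of the E2F transcription factors, which are released when cyclin-dependent kinases inactivate the retinoblastoma protein.

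The S score of members ran from 1.41 to 0.351, and the first cell outside had 0.350, so the boundary lies on a continuous slope: 9 members were within 0.05 above it and 16 cells within 0.05 below it. Members had UMIs of 2 to 7 of the 10 S genes, with a median of 4, on 2 to 15 UMIs (median 5). Mcm6, a helicase subunit, was found in 42 of 60 members, Rrm1 and Rrm2, the subunits of ribonucleotide reductase, in 38 and 35, and Dtl in 4. These values chose the cells and are not findings. Of the remaining cells, 1537 of 1935 had no UMI of the 10 S genes. Because the G2/M-scored cells were removed first, 29 of those 60 (48.3%) had an S score at or above that of the last member, and the members are therefore not all the cells with S phase transcripts.

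**Figure D1:**
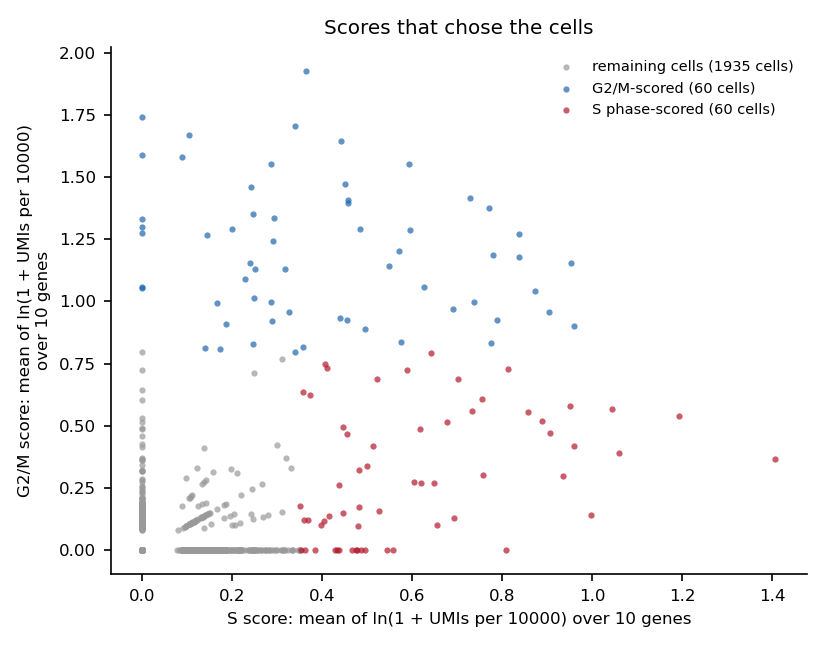
Scores used to choose the cells. Each point is 1 of 2055 cells, with the mean ln value of 10 S genes on the x axis and of 10 G2/M genes on the y axis; the 60 G2/M-scored cells (blue) were set aside first, and the 60 S phase-scored cells (red) lie to the right of 0.351 among the rest, with no gap to the remaining cells (grey).

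Members had more UMIs per cell than the remaining cells, and about as many as G2/M-scored cells. The median was 4469.5 UMIs per cell (1534 to 7351) in members, 4547.5 in G2/M-scored cells and 3233 in remaining cells (1143 to 8603), and the median number of detected genes was 1869.5, 1955 and 1438. The ranges of UMIs overlapped. The median mitochondrial share was 3.35%, 2.68% and 3.23%, and a doublet caller marked 1 member and 3 other cells. The median doublet score was 0.146 in members and 0.0968 in remaining cells, and the part of doublets in the results was not tested beyond leaving out marked cells and the deepest 2% of cells. Deeper cells have more chances of a scoring UMI, so levels below are summed UMIs of a gene per 10000 UMIs of the group, and shares of cells are also given after each cell was thinned to 2000 UMIs, which kept 57 of 60 members and 1642 of 1935 remaining cells.

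Genes that neither score used were then compared. Among 7752 unscored genes with at least 50 UMIs in the library, 454 (5.86%) had a level at least 2-fold higher in members than in the other cells and 744 (9.6%) had at most 0.5 of it, with a median ratio of 0.992. Most of these genes were too sparse for the ratio to be firm, since 379 of the higher and 658 of the lower ones were predicted to have fewer than 10 UMIs in members from their rate in the library. Among the 3475 genes above that limit, 75 were higher and 86 lower. In 7 lists of S phase genes outside the score, 84 of 135 measured genes (62.2%) were at least 2-fold higher and 9 lower, with a median ratio of 2.45. Without cells marked as doublets and the deepest 2% of cells, 87 of the 135 were higher, beside 6.23% of all measured genes. The limit of 50 UMIs counts the members' own UMIs, so a sparse gene of any list can be measured because it is high in members. These shares therefore depend in part on that limit. With at least 200 UMIs per gene, 36 of 72 S phase genes were higher, beside 2.47% of all genes.

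**Figure D2:**
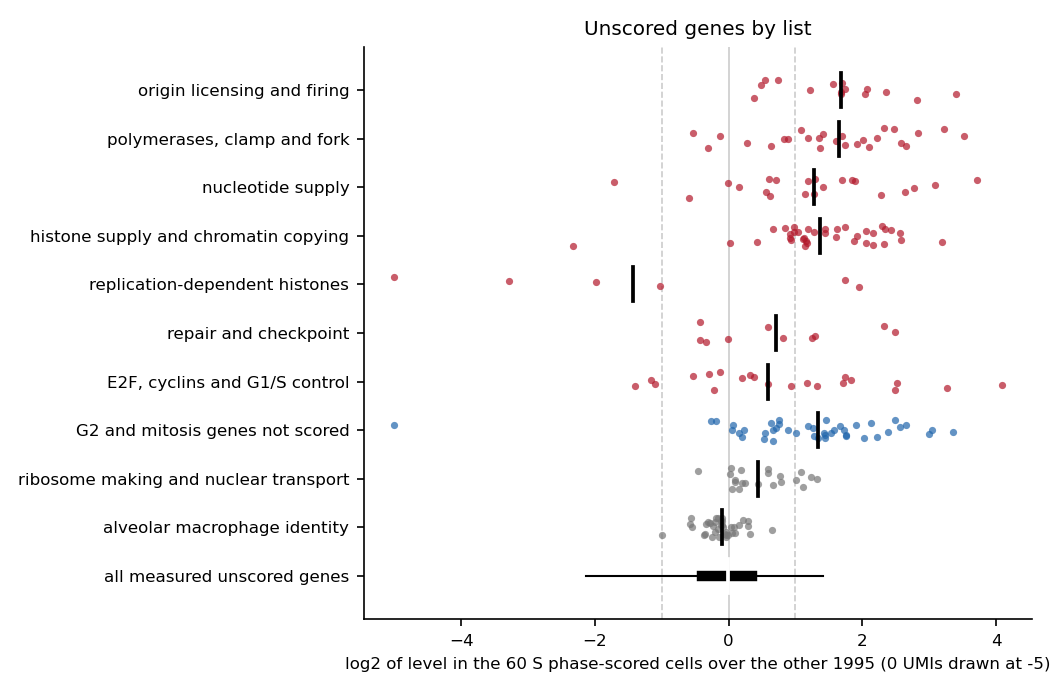
Unscored genes by list. Each point is a gene with at least 50 UMIs, placed at the log2 of its level in the 60 S phase-scored cells over all other cells; black marks are list medians, dashed lines are 0.5 and 2-fold, and the bottom bar gives the middle 50% and 95% of 7752 unscored genes. The medians of the licensing and fork lists lie near 3.2 and 3.15-fold, and that of the AM identity list at 0.93.

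Pcna encodes the sliding clamp that marks active forks. Members had 0 to 10 Pcna UMIs per cell with a median of 3, against a median of 1 in G2/M-scored cells and 0 in remaining cells, where the highest cell had 6. A UMI was found in 51 of 60 members (85.0%, exact binomial interval 73.4 to 92.9%) and in 33.6% of remaining cells. After thinning these shares were 68.4% and 22%. The level of Pcna (chr2:132249162-132253314, minus strand, GRCm38) was 7.21 per 10000 UMIs in members, 4.79 in G2/M-scored and 1.30 in remaining cells, a ratio of 5.01 (4.27 to 5.85) to the other cells.

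Origin licensing and firing genes act before the clamp is loaded. Of 15 measured genes, 11 were at least 2-fold higher and none lower, with a median ratio of 3.21. The unscored MCM helicase subunits Mcm7, Mcm3 and Mcm4 had ratios of 7.07 (4.66 to 10.5), 5.09 (3.48 to 7.27) and 4.21 (2.61 to 6.50). Clspn, which encodes the checkpoint adaptor claspin, had a ratio of 10.6 on 15 UMIs in members. Cdt1, which loads MCM, and Gmnn, which encodes its inhibitor geminin, had nearly equal ratios of 3.19 and 3.25. The remaining 4 genes, the origin recognition subunits Orc3, Orc4 and Orc5 and the MCM-binding gene Mcmbp, stayed between 1.30 and 1.67, and the counting intervals of all of them included 1. Cdc6, the other MCM loader, had 3 UMIs in members and 9 in all other cells, too few to place.

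Replication fork genes behaved alike, with 19 of 26 measured genes at least 2-fold higher, none lower, and a median ratio of 3.15. Lig1, the ligase that joins Okazaki fragments, had 1.20 UMIs per 10000 in members and 0.0794 in remaining cells, a ratio of 11.5 (7.31 to 17.6) to the other cells. Fen1, the flap endonuclease of the same step, had a ratio of 7.10. Pclaf, a PCNA-binding factor listed here as 2810417H13Rik, had 180 UMIs in 34 members, up to 14 in a cell, and a ratio of 9.31 (7.81 to 11.1). Clamp loader genes Rfc3, Rfc4 and Rfc5 lay between 5.53 and 6.29, and the single-strand binding genes Rpa1, Rpa2 and Rpa3 between 3.25 and 4.64. Top1, a topoisomerase that also acts in transcription, and Ssbp1, the single-strand binding protein of mitochondrial DNA, had ratios of 0.919 and 0.811.

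Promoters of these genes held words of the E2F motif more often than promoters at large. The words TTTGGCGC, TTTCCCGC, TTTGCCGC and TTTCGCGC were searched on both strands in RefSeq promoters (GRCm38.p6, 250 bases before to 50 after the most upstream start), and overlapping matches counted a promoter once. At least one word was in 17 of the 48 licensing and fork genes with a promoter in the table (35.4%), in 629 of 27025 promoters of all genes (2.33%) and in 4.3% of the 6069 promoters matched to measured genes. Among the 23 licensing and fork genes with a promoter that were at least 2-fold higher in members, 8 held a word (34.8%). This was about the share of the whole licensing and fork list. Of the 20 highest unscored ratios, 14 genes had a promoter in the table and 5 of them held a word (35.7%). Among 30 AM identity genes none held one. Pcna and Lig1 held no such word in this window. A match is a description of letters and not a binding site.

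Stretches that hold the words are shown for 5 genes among the 20 highest unscored ratios (Clspn, Zfp367, Pclaf, Ppat and Mcm7) and for Mcm3 and Rfc3 of the licensing and fork lists, 5' to 3' along the gene with the words in capitals. They are, in GRCm38.p6, chr4:126556900-126557018 (plus strand), chr13:64153180-64153279 (minus), chr9:65890243-65890342 (plus), chr5:76951647-76951746 (minus), chr5:138171850-138171963 (minus), chr1:20820263-20820392 (minus) and chr5:151651189-151651288 (minus). 
Clspn: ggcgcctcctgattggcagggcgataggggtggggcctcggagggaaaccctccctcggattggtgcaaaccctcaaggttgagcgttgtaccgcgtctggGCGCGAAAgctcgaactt
Zfp367: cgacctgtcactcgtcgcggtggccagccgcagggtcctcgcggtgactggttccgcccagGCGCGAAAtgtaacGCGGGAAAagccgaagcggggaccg
Pclaf: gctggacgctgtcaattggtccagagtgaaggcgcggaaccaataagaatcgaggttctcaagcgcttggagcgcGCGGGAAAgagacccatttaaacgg
Ppat: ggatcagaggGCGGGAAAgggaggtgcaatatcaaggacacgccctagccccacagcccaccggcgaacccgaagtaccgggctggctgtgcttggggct
Mcm7: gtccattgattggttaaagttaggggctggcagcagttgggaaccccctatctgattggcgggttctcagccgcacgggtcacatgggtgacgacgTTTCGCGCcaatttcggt
Mcm3: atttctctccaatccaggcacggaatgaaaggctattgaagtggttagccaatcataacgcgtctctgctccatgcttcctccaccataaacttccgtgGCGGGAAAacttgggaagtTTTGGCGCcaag
Rfc3: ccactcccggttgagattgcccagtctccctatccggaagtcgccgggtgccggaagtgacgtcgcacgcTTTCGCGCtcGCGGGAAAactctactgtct

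In every stretch but that of Ppat the words begin within 50 bases of the annotated start on either side, at -19 and -5 in Zfp367, -5 in Pclaf, 21 in Clspn, 16 in Mcm7, 19 and 38 in Mcm3 and -10 and 0 in Rfc3, with the first transcribed base as 0. Ppat holds its words at -211 and -158, and the first of these and a word at -165 in Mcm7 lie outside the stretches shown.

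Nucleotide supply genes were higher for 13 of 21 measured genes and lower for 1, with a median ratio of 2.42. Tk1, cytosolic thymidine kinase, had a ratio of 8.46 (5.05 to 13.7). Dut, which removes dUTP, was in 37 members with up to 5 UMIs in a cell and had a level of 3.00 in members against 0.401 in remaining cells. Dck, which salvages deoxynucleosides, had a ratio of 4.84. Genes of the purine pathway also had higher levels, with Ppat, its first enzyme, at 6.85, Paics at 3.69, Pfas at 3.60 and Gart at 2.42. Samhd1, which degrades dNTPs and is abundant in myeloid cells, went the other way with a ratio of 0.667 (0.433 to 0.982). Nme2 had the lowest ratio of the list, 0.305 on 6 UMIs, but 97.6% of the 98-base words in its last 300 transcribed bases also occur in Gm20390, and its counts are uncertain.

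Histone chaperones and chromatin-copying genes held the most molecules among the S phase lists. Their summed level was 112 per 10000 UMIs in members, 178 in G2/M-scored and 42.7 in remaining cells, and 26 of 36 measured genes were at least 2-fold higher and 1 lower (H1f0, a linker histone, 0.199 on 1 UMI), with a median ratio of 2.57. Chaf1a, a subunit of the CAF-1 chaperone that follows PCNA, had a ratio of 9.11 on 15 UMIs. Hat1, which acetylates new histone H4, had 4.89, Nasp, a carrier of H3 and H4, 4.14, and Dnmt1, the maintenance DNA methyltransferase, 4.46. H2afz, a histone variant found in all 60 members and in 93.5% of remaining cells, had a median of 12 UMIs per cell in members and 4 in remaining cells, and a ratio of 1.97 (1.84 to 2.12).

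Histone genes of the replication-dependent clusters did not move together. Most of their transcripts end in a stem-loop without a poly(A) tail, and this library was primed on poly(A). Of 27 such genes in the table, 6 had at least 50 UMIs. Hist1h2ap and Hist1h4i had ratios of 3.88 and 3.32, and 4 others were at or under 0.5. Hist1h2bc (chr13:23684199-23692908, plus strand), an H2B gene, had 5 UMIs in 5 of 60 members, and a UMI in 41.8% of remaining cells, where the highest cell had 8. Its level was 0.188 in members, 0.572 in G2/M-scored and 1.88 in remaining cells, a ratio of 0.103 (0.0333 to 0.240), although members were the deeper cells. After thinning, 1.75% of members and 27.9% of remaining cells had a Hist1h2bc UMI. Slbp, which binds the stem-loop of the replication-dependent histones, had a ratio of 2.73 (2.13 to 3.46).

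Repair and checkpoint genes were higher for 4 of 10 measured genes and lower for none, and 23 others of the list were under the count limit. Topbp1, an activator of the ATR kinase, had a ratio of 5.60. Just under the limit, Ung, which removes uracil from DNA, had 18 UMIs in members, none in G2/M-scored cells and 31 in the remaining cells. The p53 targets Cdkn1a, the inhibitor p21, and Mdm2 had ratios of 0.741 (0.626 to 0.871) and 0.744.

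Cyclins, E2F factors and their inhibitors were mixed, with 9 of 21 measured genes higher, 3 lower and a median ratio of 1.5. Ccne2, the cyclin E that drives S phase entry, had the highest ratio of the reported unscored genes with a UMI in at least 10 members, 16.9 (9.70 to 29.1), with 24 UMIs in 16 of 60 members and 17 UMIs in 1935 remaining cells. Ccna2, the cyclin of S and G2, had a ratio of 9.62. E2f1, E2f2 and Cdk2 had ratios of 3.35, 5.60 and 3.27. The D-type cyclin Ccnd2 (0.820) and Cdk6 (0.860) did not follow, and Cdkn1b, the inhibitor p27, had a ratio of 0.377 (0.151 to 0.783).

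**Figure D3:**
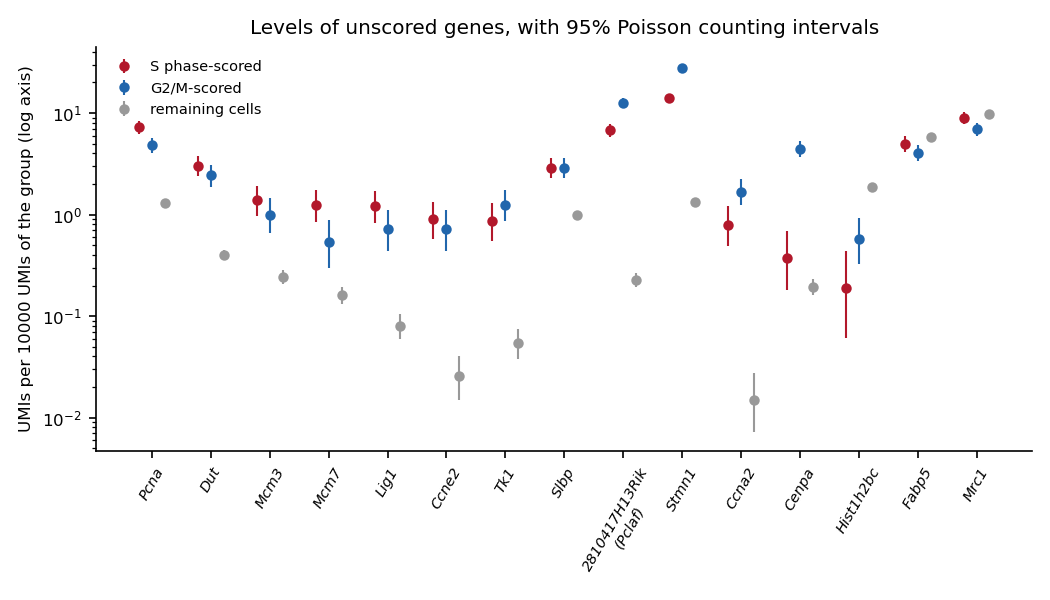
Levels of unscored genes in 3 groups of cells. Points are UMIs per 10000 UMIs of the group on a log axis with 95% Poisson intervals, for S phase-scored (red, 60 cells), G2/M-scored (blue, 60) and remaining cells (grey, 1935). Pcna to Slbp are higher in both scored groups than in remaining cells, Cenpa is at 4.39 in G2/M-scored cells and 0.376 in members, and Hist1h2bc is lowest in members, at 0.188.

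The 20 highest ratios, among 3506 measured genes with a UMI in at least 10 members, ran from 16.9 down to 6.32. That rule admits genes by their presence in members. The order of the 20 changed with the comparison cells. Against the remaining cells alone, Ccna2 (52.7), Esco2 (40.1) and Pbk (37.6) stood above Ccne2 (35.4), Pclaf was at 29.5 and, outside the 20, Stmn1 at 10.6. The 20 held 11 genes of the S phase lists, 4 of the G2 and mitosis list (Esco2, Mad2l1, Pbk and Racgap1) and 5 of neither. Among these 5, Zfp367, a zinc finger factor, had 30 UMIs in members and a ratio of 9.68 (6.14 to 14.9). Ube2t, the ubiquitin-conjugating enzyme of the Fanconi anaemia pathway, had a ratio of 6.70 and Wdr76 one of 6.87. Gatm, the first enzyme of creatine synthesis, had 11 UMIs and 6.39 (2.98 to 12.5), and Chd3os, a non-coding gene beside Chd3, 10 UMIs and 6.37 (2.85 to 12.9).

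Genes of ribosome making and nuclear transport had a summed level of 99.9 in members, 106 in G2/M-scored and 56.8 in remaining cells, and 20 of 21 measured genes had a ratio above 1. Of these, 5 passed 2-fold, with Nap1l1 at 2.49, Ranbp1 at 2.35, Ptma at 2.17, Ran at 2.12 and Nop56 at 2.01. Nap1l1 is a histone chaperone, Ran and Ranbp1 act in nuclear transport, and Ptma encodes prothymosin, a small acidic chromatin protein. Nop56 is a core protein of the box C/D particles that modify ribosomal RNA, and the lowest ratio of the list was 0.726, for the ribosome assembly gene Rrs1 on 9 UMIs.

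AM identity genes stayed within 2-fold of the other cells, and most leaned slightly lower in members. Of 38 measured identity genes none passed 2-fold in either direction, and 10 had a ratio above 1, with a median of 0.930. Over all measured genes 5.86% were higher and 9.6% lower, and among the 3475 better-covered genes 75 and 86, so a count of 0 in 38 says little. Siglecf and Itgax, which encode the sorting antigens Siglec-F and CD11c, had ratios of 1.04 and 1.22, Pparg, the nuclear receptor that specifies AMs, 0.926, and the lipid-handling genes Fabp4, Fabp5 and Lpl 1.16, 0.871 and 1.02. The scavenger receptor gene Marco had the highest ratio among measured identity genes, 1.57, and Cidec, a lipid droplet gene, the lowest, 0.504 on 20 UMIs. The summed level was 427 per 10000 in members (419 to 435), 355 in G2/M-scored and 470 in remaining cells (468 to 471). Single members ranged from 243 to 735, inside the range of remaining cells.

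Receptors for the AM growth factors differed little. Csf2ra and Csf2rb, subunits of the GM-CSF receptor, had ratios of 0.751 and 0.972, and Tgfbr1 and Tgfbr2 had 1.18 and 1.14. Klf2, a factor of quiescence, had 2 UMIs in members and 272 in remaining cells, a ratio of 0.183 (0.0220 to 0.666). Among 13 mitochondrially encoded, 13 glycolysis and 37 proteasome genes none passed 2-fold in either direction, and 83 of 84 nuclear respiratory genes lay between. Of 19 chemokine, cytokine and NF-kB response genes, Cxcl10 was above 2-fold (2.18 on 7 UMIs) and Cxcl1, Cxcl3 and Il6 were under 0.5 (9, 4 and 5 UMIs). Of 7 MHC class II genes, H2-Ab1 and H2-Eb1 were under 0.5 (0.475 and 0.453). The summed level of the MHC class II list was 10.3 in members, 6.36 in G2/M-scored and 13.9 in remaining cells. Single remaining cells reached 1051 with a median of 5.46, and single members reached 156 with a median of 3.54. The part of the highest remaining cells in these ratios was not tested. None of 21 immediate-early and heat shock genes passed 2-fold, and of 18 sterol genes 1 was above and 1 below. Beside these counts, 5.86% of all measured genes were at least 2-fold higher in members and 9.6% at most 0.5. Small counts in these lists are therefore a description and not a result about the families.

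Those markers of other cell types that were present in the data were near 0 in members, except for the lung epithelial list. The T and NK, dendritic, endothelial and stromal, and B and plasma cell lists had 1, 1, 2 and 2 UMIs in all 60 members. However, only 1 of 11, 3 of 8, 3 of 9 and 4 of 8 genes of these lists were present in the data. None of the erythroid and mast cell genes was present, so these values say little about absent markers. Neutrophil and monocyte lists, with 3 of 8 and 8 of 11 genes present, had 13 and 7 UMIs. Their levels were 0.488 and 0.263 in members and 0.728 and 0.367 in remaining cells, with overlapping counting intervals. The lung epithelial list had 103 UMIs in 42 members, of which 82 were Epcam, and a level of 3.87 per 10000 in members, 2.79 in G2/M-scored and 3.57 in remaining cells. Sftpb, Sftpd, Scgb3a2 and Cbr2 of that list were at 0 in members, Sftpc had 8 UMIs and Scgb1a1 10, and the part of this signal in the results was not tested. The lowest ratio among well-covered genes, 0.0520 for Jchain, the joining chain of antibodies, came from the comparison side, since 1 remaining cell held 951 of the 1034 UMIs of the B and plasma cell list there. The other 8 lowest ratios beside Hist1h2bc and Jchain, Aup1, Slc35b1, Klf2, Pip5k1c, Tcp11l2, Rnf111, Smim15 and Marf1, rested on 2 to 4 UMIs each in members.

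Transcripts of G2 and mitosis were also present in members, although the cells highest in 10 such genes had been set aside. Of 43 measured genes of the unscored G2 and mitosis list, 26 (60.5%) were at least 2-fold higher in members than in other cells. Ccnb1 was at 0 UMIs in members. The median ratio was 2.52, but those other cells include the G2/M-scored cells. Against the remaining cells alone, 29 of the 43 (67.4%) were higher, beside 6.35% of all measured genes. So were 89 of 135 unscored S phase genes (65.9%). The median ratios were then 4.01 for the G2 and mitosis list and 2.69 for the S phase lists pooled. Among the latter, licensing genes had a median of 3.69 and fork genes one of 3.38. The G2 and mitosis list also holds Stmn1 and tubulin genes, which are not confined to mitosis, so its median does not measure mitotic transcripts alone. Stmn1, a tubulin-binding protein of dividing cells, was in 55 of 60 members with a median of 4.5 UMIs and a highest cell of 22, against medians of 11 in G2/M-scored and 0 in remaining cells, and its level was 14.05, 27.5 and 1.33. Tubb5, a tubulin, had a ratio of 2.69 and Smc2, a condensin subunit, 5.22. Stmn1 shares 32.9% of its terminal 98-base words with another gene, Hmgb2 49.5%, Mcm7 21.2% and H2afz 16.3%, so their counts are less certain. Promoters of this list held the CHR words TTTGAA or TTTAAA in 40 of 59 genes (67.8%), against 27.9% of all promoters, 18.1% of those of measured genes and 18.8% of the licensing and fork genes.

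Set against the G2/M-scored cells directly, members had lower levels of mitosis genes, and S phase genes differed by list. Across 3851 genes with at least 20 UMIs in both groups together, 106 (2.75%) were at least 2-fold higher in members and 258 (6.7%) at least 2-fold higher in G2/M-scored cells. Of 52 unscored G2 and mitosis genes, 42 were in the second set and none in the first, a direction that the removal of G2/M-scored cells sets in part. Cenpa, the centromeric histone, had 10 UMIs in members and 123 in G2/M-scored cells, Cdc20, the activator of anaphase, 3 and 36, and Ccnb1, the mitotic cyclin, 0 and a level of 1.39. The 109 unscored S phase genes had a median ratio of 0.934, with 5 higher in members and 13 higher in G2/M-scored cells, and their summed level was 218 in members and 293 in G2/M-scored cells. Medians were 1.24 for nucleotide supply, 1.14 for fork, 0.951 for licensing, 0.801 for repair, 0.788 for cyclin and E2F, 0.747 for histone supply and 0.328 for replication-dependent histone genes.

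A few S phase genes did lean to the members. Mcm7 had a ratio of 2.31 (1.22 to 4.58) to G2/M-scored cells, Nasp 2.1 (1.22 to 3.74), Hat1 1.90 (1.20 to 3.05) and Pcna 1.51 (1.20 to 1.89). Ung, under the count limit, was at 18 and 0 UMIs. With an assumed 3 UMIs in the G2/M-scored group its ratio would be 6.31, which is not a lower bound. Pclaf (0.537), Stmn1 (0.511) and Hist1h2ap (0.207) leaned to the G2/M-scored cells. Outside the cell cycle, Apoe, the lipid carrier apolipoprotein E, had 55 UMIs in 14 members and 1 in G2/M-scored cells, but 27 of the 55 were in 1 member. The next genes by ratio, Zbtb1, Grina, Mycbp, Ppp2r1b, Bad, Ipo9 and Rad23b, had 16 to 23 UMIs in members and 4 to 6 in G2/M-scored cells. Among genes with a UMI in both groups, the lowest ratios belonged to Spn and Ect2 (0.0553 each), Cenpa (0.0854), Cdc20 (0.0876), Cxcl1 (0.0996), Cenpe (0.108), Slc35b1 (0.111) and Cdkn3 (0.113). Cxcl1, a neutrophil chemokine, had 9 UMIs in members and 95 in 12 of 60 G2/M-scored cells.

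Members were themselves uneven, and the unevenness followed the 10 G2/M scoring genes. None of these had a UMI in 14 members, 18 had 1 or 2 of them, and 28 had 3 or more, with median depths of 3919.5, 4010 and 4659.5 UMIs. The division was made after the values were seen, and the depth moves with it. Both scores chose the members, so the levels of unscored genes over these sets are a description. Pcna differed little, with 5.54, 7.18 and 7.91 and overlapping intervals. Pclaf went from 0.179 (1 UMI in 14 cells) to 2.57 and 11.7, and Dut from 0.893 to 3.52 and 3.59. Slbp was at 1.07 and 0.948 in the first 2 sets and 4.69 in the third, and Ccne2 at 0.179, 0.271 and 1.54.

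The unscored G2 and mitosis list went from 30.9 to 45.5 and 94.6 over the 3 sets, and the licensing and fork lists together from 28.4 (24.2 to 33.2) to 38.6 and 57.9. Even the 14 members without a G2/M scoring UMI thus had more licensing and fork transcripts than cells below rank 200, at 13.5. Those 14 cells had no UMI of Fen1 or Ccna2, where a floor of 3 UMIs is a level of 0.536, and E2f1, at 1.79 (10 UMIs in 8 of 14 cells), was not lower in them than in the 28 cells at 0.952.

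**Figure D4:**
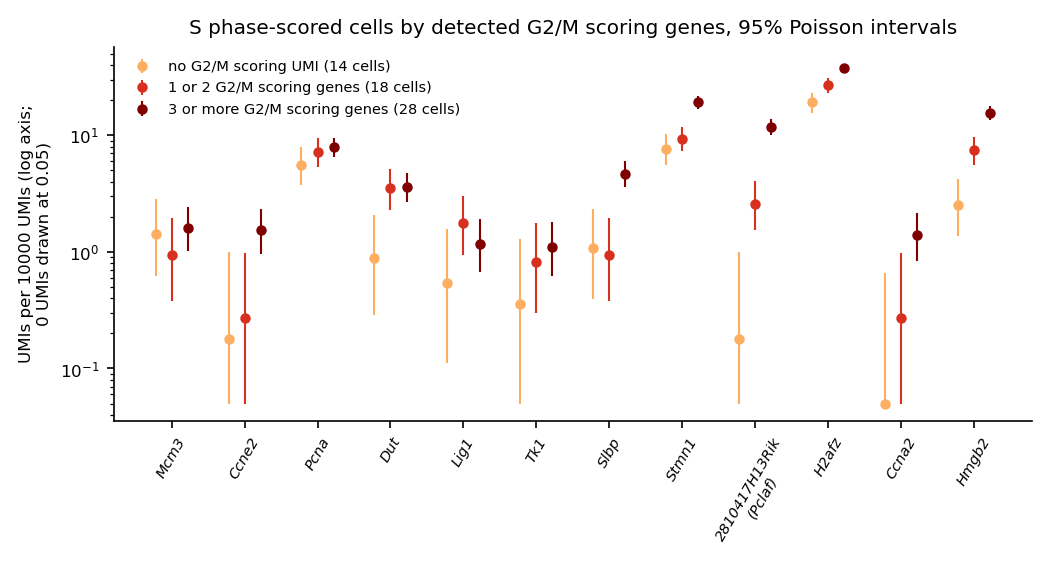
Members by detected G2/M scoring genes. Points are UMIs per 10000 UMIs on a log axis with 95% Poisson intervals for members with none (14 cells), 1 or 2 (18) and 3 or more (28) of the 10 G2/M scoring genes, with levels and interval ends near 0 drawn at the lower limit; Pcna lies between 5.54 and 7.91, while Pclaf runs from 0.179 to 11.7 and Hmgb2 from 2.5 to 15.5.

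Levels of unscored S phase genes were also lower further down the order of S score. The 59 licensing and fork genes summed to 58.9 per 10000 UMIs in ranks 1 to 20, 38.8 in ranks 21 to 40 and 41.8 in ranks 41 to 60. Outside the members it was 27.7 in ranks 61 to 80, 17.3 in ranks 81 to 120, 14.2 in the next 80 cells and 13.5 below rank 200. The 20 cells just outside thus lay between members and the rest for the lists as a whole, while Pcna was at 6.13 in ranks 41 to 60 and 1.71 (0.882 to 2.98) in ranks 61 to 80. Median depth was 4096.5 UMIs in ranks 41 to 60 and 2718.5 in ranks 61 to 80. AM identity genes showed no steady course, at 387 in ranks 1 to 20, 467 in ranks 21 to 40 and 423 in ranks 41 to 60. They were at 419 in ranks 61 to 80 and 471 below rank 200.

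**Figure D5:**
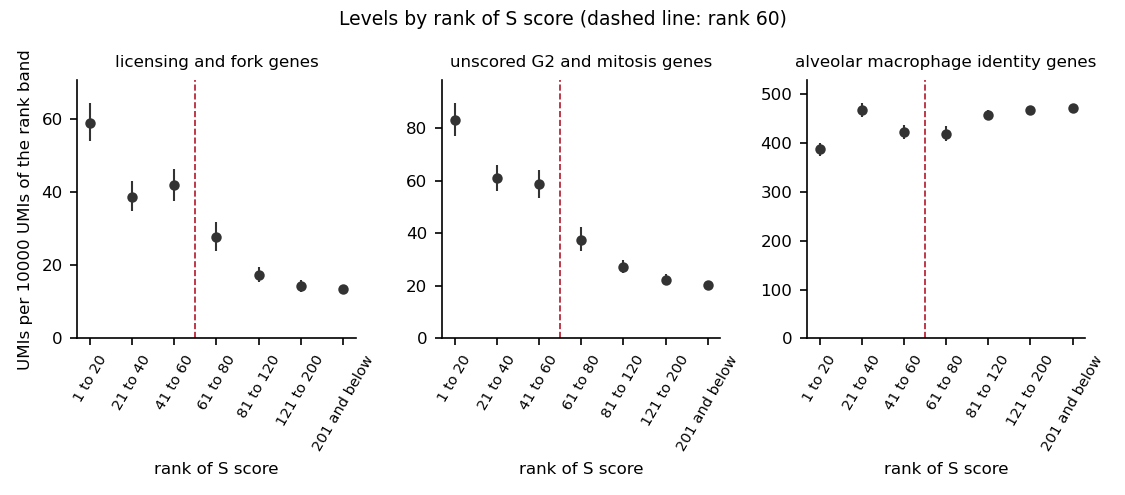
Levels along the rank of S score. Each point is the summed level of a gene list in a band of cells ranked by S score, with 95% Poisson intervals, and the dashed line marks rank 60. Licensing and fork genes run from 58.9 in ranks 1 to 20 to 13.5 below rank 200, and unscored G2 and mitosis genes from 83.2 to 20.5. AM identity genes show no steady course, with 387 in ranks 1 to 20, 467 in ranks 21 to 40 and 471 below rank 200.

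Members lay near each other in expression when the 20 scoring genes were left out. On 15 principal components of 500 variable genes, 19.5% of the 30 nearest cells of a member were members, against 2.87% expected from their share of the library, and 13.8% were G2/M-scored. Of 60 members, 20 had at least 15 neighbours in either scored group and 6 had none. G2/M-scored cells were more compact, with 60.6% of their neighbours in their own group. When all cell cycle lists and the ribosome-making list were left out (335 genes), members made up 3.61% of the neighbours of members.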

How the data were processed

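The authors aligned reads to mm10 with Cell Ranger and, in Seurat (R), deposited the natural log of 1 plus UMIs per 10000 UMIs of the cell. A second deposited file holds a scaled score, the log value after regression on UMIs and mitochondrial share. It was used in an alternative only. UMI counts were recovered from the log values, 100% of which were whole within 0.01, for 2055 cells and 11918 genes (7222978 UMIs, 1143 to 8603 per cell). The methods exclude cells with more than 2500 genes as likely doublets, and no cell in the file is above that, so the most gene-rich cells of any phase are not in these values. They also name a limit of 5% mitochondrial content, but cells above it are in the file (9 members, 15.0%, and 375 others, 18.8%).

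Members, gene lists and rules were chosen with earlier results of these data known. Levels, ratios and calls are as defined in the text. Intervals are exact Poisson for levels, exact binomial for shares and conditional binomial for ratios, all at 95%, and treat UMIs as independent. With 1 library no test was run. Named genes are the scoring genes, the 20 highest ratios (at least 50 UMIs and a UMI in at least 10 members), the 10 lowest (at least 10 expected UMIs), the 8 highest ratios each way against G2/M-scored cells (with a UMI in both groups), and listed genes by UMIs or ratio. Genes named beside them with fewer than 50 UMIs, and Hmgb2, Klf2 and Samhd1, were picked from the lists after values were seen. Promoters are RefSeq (GRCm38.p6) and gene positions GENCODE M21. A base of the annotated start counts as 0.

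Steps used Python 3.11.15, numpy 2.4.6, scipy 1.17.1, pandas 2.3.3, scanpy 1.11.5 (neighbours and doublet calls) and scikit-learn 1.9.0, and were tested on simulated counts. Alternatives covered the gene filter, fold limit, comparison cells, number and choice of members, weighting of cells, depth, mitochondrial share, doublets and neighbour settings. Splits by G2/M scoring genes, members chosen after thinning, leaving out the member highest in Apoe, and alternatives for the comparison with G2/M-scored cells were added after seeing the data. Some genes that meet the naming rule are not reported here.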

Additional observations from a re-analysis of the deposited data

How the results depend on the processing

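No paired analysis was possible because there is 1 library. Counts of genes moved with limits, depth and the choice of members. With at least 20 UMIs per gene, 838 genes (8.93%) were higher and 1208 lower, with 42 of 65 G2 and mitosis genes higher. With at least 200 UMIs these were 106 (2.47%) and 148, with 36 of 72 S phase genes and 6 of 16 G2 and mitosis genes higher. At 1.5-fold, 1191 were higher and 1392 lower, and 440 and 618 against G2/M-scored cells. At 3-fold they were 148 (1.91%) and 327, 13 and 81, with 15 of 43 G2 and mitosis genes higher. After thinning, 734 and 1274, and 346 and 497 against G2/M-scored cells. With members chosen on thinned values, 43 of the 60 were shared, 1228 genes were lower, and 339 and 493 differed from G2/M-scored cells. For the 14 members without a G2/M scoring UMI, 1000 genes (12.9%) were higher and 2126 (27.4%) lower, and 296 and 708 differed from G2/M-scored cells. In so few cells a sparse gene can fall to 0. Of S phase genes 52 of 135 were higher, and of G2 and mitosis genes 8 of 43 (18.6%). For the 32 members with at most 2 such genes, 1139 were lower, and 461 lower than in G2/M-scored cells. In them 11 of 43 G2 and mitosis genes (25.6%) were higher, beside 8.15% of all genes. The share of S phase genes at least 2-fold higher ran from 38.5% in those 14 cells (all genes 12.9%) to 66.5% with at least 20 UMIs (all genes 8.93%). Among the 20 highest ratios, Ccna2, Pbk, Fen1 and Chd3os were at 0 and Pclaf at 0.246 in the 14 members, and the ratio of Mycbp to G2/M-scored cells was 0.862 in the 32. Without the G2/M-scored cells in the comparison, 10 of the 20 highest ratios moved by more than 1.5 times, all upward. The ratio of Apoe to G2/M-scored cells was 57.8, and 30.1 without the member highest in it. Without all cell cycle lists, 3.61% of members' neighbours were members. Other counts, and median UMIs per cell, stayed within 1.5 times or the counting interval of the reported value. The cause of these moves was not tested beyond what each alternative changes. Depth limits single genes: a gene absent from members may have a level of up to 0.113 (3 UMIs in 266295).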
